A study of Mus musculus with 12 samples.

Results

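The urothelium of mice that had lost Stag2 for 1 week was compared with that of wild-type mice, using every library of that time: 3 Stag2-KO (KO) and 3 Stag2-WT (WT) libraries, which are 6 of the 12 in the series. The source of all 6 was peeled urothelium, the epithelium stripped from the tissue beneath it, and the mice of both genotypes had received TMX (tamoxifen, as the abbreviation is taken here) in their diet and were taken 1 week after its start. The labels number each animal and place all 6 libraries in batch 1, so the p-values measure the spread between these animals. Strain, age, sex, the Cre driver and the allele that was deleted are not given in the labels, and KO is used here as the labels use it. The series' design text states the aim of finding the molecular effects of Stag2 inactivation.

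Stag2 codes for part of cohesin, a ring-shaped complex that keeps sister chromatids together and extrudes the chromatin loops in which genes and their regulatory elements meet. The urothelium is the stratified lining of the bladder. Its basal cells rest on a basement membrane of type IV collagen, laminins and nidogens, its umbrella cells carry plaques of uroplakins, and in a resting animal it turns over slowly. Below it lies the lamina propria, where fibroblasts make fibrillar collagens, proteoglycans and glycoproteins. Injured urothelium can take on squamous traits, such as keratins and cornified envelope proteins that the resting tissue holds at low levels. Urothelial cells also express conjugating enzymes, water and solute carriers and components of the circadian clock.

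The labels were checked first. Stag2, on chromosome X, had 120.3, 108 and 154 CPM in WT and 76.2, 61.1 and 69.3 CPM in KO, where CPM relate each count to its library total, scaled by TMM. Each KO library lay below each WT library, and Stag2 transcripts remained in all 3 KO libraries. The log2 difference, KO minus WT, was -0.89 (SE 0.27, adjusted p 0.198) with all 6 libraries and -0.95 (SE 0.23, adjusted p 0.0766) without KO replicate 3 by edgeR, which missed the threshold of 0.05 in both fits. Xist, the RNA of the inactive X chromosome, had 4, 1 and 13 counts in WT and 10206, 10406 and 6392 counts in KO. The 4 Y-linked genes of the comparison summed to 165, 173 and 222 CPM in WT and 0.54, 0 and 0 CPM in KO. Genotype and sex-linked transcripts therefore cannot be told apart at this time, for any gene given below.

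Markers of urothelium were abundant in every library. Upk1a, a uroplakin of umbrella cells, had 3349, 2839 and 4203 CPM in WT and 4142, 2014 and 6606 CPM in KO. Krt7, a keratin of all urothelial layers, had 1701, 1609.7 and 1960.1 CPM in WT and 1726, 2015 and 3112 CPM in KO, and Gata3, a regulator of urothelial fate, had 902, 869 and 1134 CPM in WT and 879, 423 and 844 CPM in KO. The CPM of the genotypes overlapped for all 3 genes, although KO replicate 2 lay below every WT library for Upk1a and KO replicates 2 and 3 did for Gata3. The 25 listed uroplakins and urothelial regulators summed to 10682, 9902 and 12623 CPM in WT and 11590, 6800 and 12506 CPM in KO. Upk3a, another uroplakin, had 2592, 2147 and 2440.5 CPM in WT and 2578, 1292 and 169 CPM in KO. For it KO replicates 2 and 3 lay below every WT library, and KO replicate 3 was the lowest.

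KO replicate 3 stood apart before any comparison. Total counts ran from 5620137 in KO replicate 3 to 9497088. In KO replicate 3, 85 genes had at most 3 counts although each other library had at least 50, and no other library had such a gene. It held 1178 genes at a level 4-fold or more below all other libraries and 280 genes 4-fold or more above them, against 12 to 33 and 0 to 23 in the other 5. Its Spearman correlations with them, across the tested genes, were between 0.73 and 0.833, while theirs with each other were between 0.896 and 0.986. Its levels also followed transcript length. When genes were split into 5 equal groups by annotated transcript length, its median in the shortest group stood at -0.64 on the log2 scale relative to the WT mean, and in the longest group at 0.39, against -0.08 to 0.12 in all groups of the other libraries. The labels' protocols give one narrow range of RNA quality for all samples and no value for single libraries. The values below show KO replicate 3 as a library of its own, and fitted differences or p-values are given without it and, for most genes, with it. The cause of its uneven recovery was not tested.

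**Figure D1:**
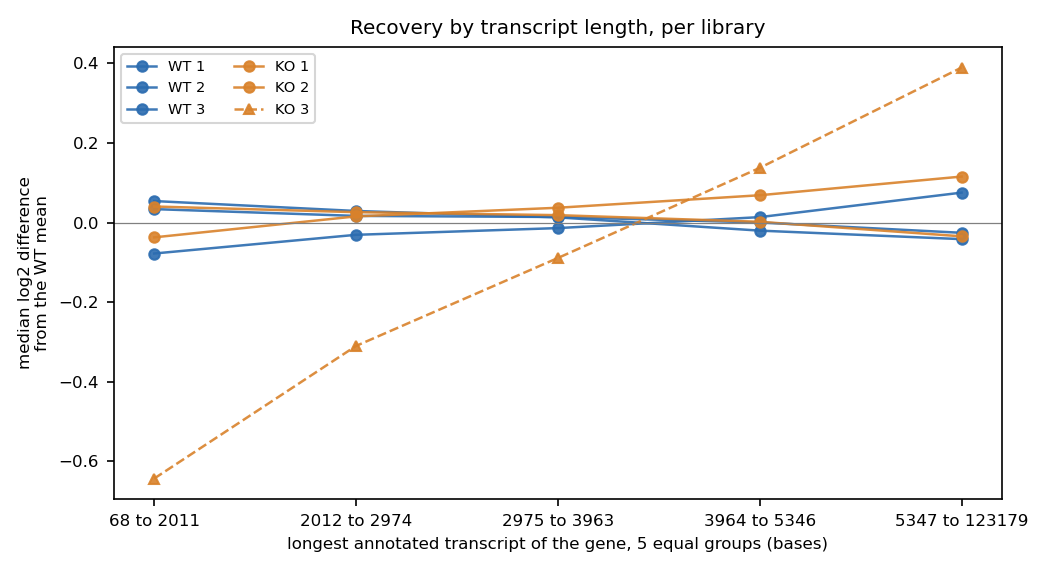
Median log2 difference of each 1-week library from the WT mean (vertical axis) in 5 equal groups of genes ordered by their longest annotated transcript in bases (horizontal axis), WT in blue and KO in orange, with KO replicate 3 as dashed triangles. KO replicate 3 runs from -0.64 in the shortest group to 0.39 in the longest, and the other 5 libraries stay between -0.08 and 0.12.

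Across all 6 libraries, 12754 of the 23337 listed genes passed the filter on low counts, and 8 of them (0.0627%) passed edgeR's quasi-likelihood test at an adjusted p of 0.05. Xist and Vcan were higher in KO (0.0157% of tested genes), and Ddx3y, Uty, Eif2s3y, Kdm5d, Hrh3 and Dbp were lower (0.047%). The first 4 of these lower genes are Y-linked, and Hrh3 encodes a histamine receptor. An unadjusted p under 0.05 was reached by 1976 genes. Without KO replicate 3 the biological coefficient of variation fell from 44.4% to 27.6%, and 320 of 13059 genes (2.45%) passed, 220 higher (1.68%) and 100 lower (0.766%) in KO. All 8 genes were among these 320. Of the 320, 316 were tested with 6 libraries too, all 316 had the same sign there, and for 296 KO replicate 3 lay on the KO side of every WT library. These shares come from fits that hold 5 libraries in common and are no independent check. Leaving out WT replicate 1, 2 or 3 instead left 0, 0 and 1 genes past the threshold, leaving out KO replicate 1 gave 56, and leaving out KO replicate 2 gave 2.

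A fit that keeps KO replicate 3 but gives it less weight (limma-voom with sample quality weights, where its weight was 0.125) called 680 genes (5.33%), 494 higher (3.87%) and 186 lower (1.46%). It shared 301 genes with the 320, which is 94.1% of these and 44.3% of its own. DESeq2 on all 6 libraries called 957 genes (7.5%), 687 higher (5.39%) and 270 lower (2.12%), of which 273 were among the 320. In the paragraphs below, a gene is said to rise or fall where it passed edgeR's test in the fit of 5 libraries, that is without KO replicate 3, at an adjusted p of 0.05, and for most genes the values with all 6 libraries stand beside. KO CPM lay wholly above WT CPM for 14.1% of all tested genes and wholly below for 12.5%, together 26.5%, and the median log2 difference over all tested genes was 0.02 (-0.03 without KO replicate 3). Counts of wholly higher or lower genes in the lists below are to be read against these shares.

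**Figure D2:**
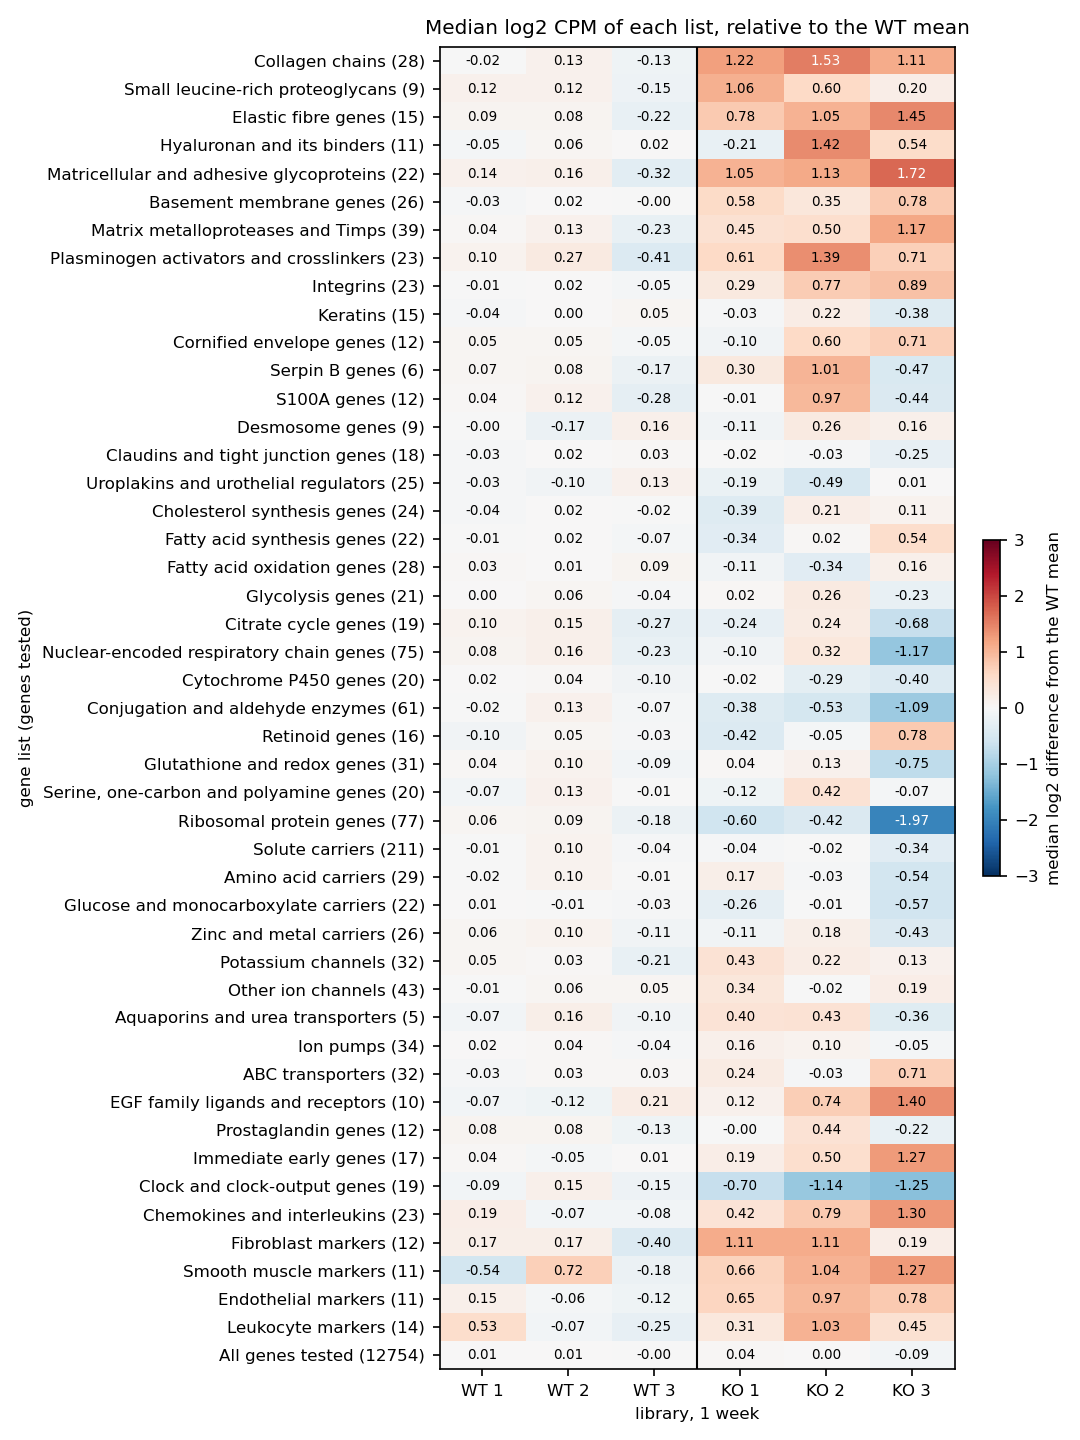
Median over the tested genes of each list of log2 CPM relative to the mean of the 3 WT libraries, for each 1-week library (columns, WT left and KO right of the line), with the number of tested genes in brackets and the value printed in each cell. The matrix lists at the top are above 0 in all 3 KO libraries, with the exception of -0.21 for hyaluronan genes in KO replicate 1, and the clock and ribosomal protein lists are below 0 in all 3.

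Many genes of the extracellular matrix were higher in KO. Vcan, which encodes versican, a large proteoglycan that binds hyaluronan, had 61.9, 69 and 59.8 CPM in WT and 399, 575 and 566 CPM in KO. All 3 KO libraries exceeded all WT libraries, and the mean was 8.08-fold higher. The log2 difference was 3.01 (SE 0.30, adjusted p 0.0275) with all 6 libraries and 2.90 (SE 0.23, adjusted p 0.00485) without KO replicate 3 by edgeR. In the list for hyaluronan and its binders, 11 of 22 genes were tested, and Vcan and Stab1, a scavenger receptor, rose. Has2, a hyaluronan synthase, had 4, 10 and 10 counts in WT and 13, 72 and 39 counts in KO. Its KO libraries were above the WT libraries but KO replicate 1 only slightly so, and it did not pass (edgeR adjusted p 0.159 with 6 libraries and 0.124 with 5). Has2 entered the test through the KO libraries alone and so had to be higher.

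Collagen chains followed. Of 43 listed chains 28 were tested, and 25 of these reached the filter's level in every WT library. In the fit of 5 libraries 9 rose and 0 fell (Col1a1, Col4a1, Col4a2, Col5a1, Col5a2, Col6a2, Col11a1, Col12a1 and Col16a1), and for 14 chains KO lay wholly above WT. The median log2 difference over the 28 was 1.32 with 6 libraries and 1.27 with 5. Col4a1, a chain of the basement membrane network, had 52.3, 62.6 and 51.5 CPM in WT and 383, 563 and 942 CPM in KO. Its partner Col4a2, which shares a promoter region with it, had 27.5, 32.8 and 29.2 CPM in WT and 123, 256 and 389 CPM in KO. Both were wholly higher in KO, with KO replicate 1 the lowest of its group. For Col4a1 the edgeR log2 difference was 3.50 (SE 0.41, adjusted p 0.0506) with all 6 libraries and 3.05 (SE 0.25, adjusted p 0.00485) without KO replicate 3, and for Col4a2 it was 3.10 (SE 0.45, adjusted p 0.0927) with all 6 libraries and 2.64 (SE 0.32, adjusted p 0.0165) without KO replicate 3. Col12a1, a chain that decorates fibrils, had 26.1, 26.3 and 27.5 CPM in WT and 129, 178 and 345 CPM in KO, and rose by 2.48 on the log2 scale (3.03 with 6 libraries). Col1a1, the main fibrillar chain, had 881, 1093 and 622 CPM in WT and 2914, 2655 and 1318 CPM in KO. It rose by 1.64 without KO replicate 3, and the edgeR adjusted p was 0.182 with it. Col6a3 had 41.7, 65.5 and 25.8 CPM in WT and 98.2, 236 and 533 CPM in KO, wholly higher in KO, and missed the threshold in both fits (edgeR adjusted p 0.139 and 0.0801).

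Matricellular and adhesive glycoproteins, which modulate how cells hold on to the matrix, had 22 of 29 genes tested. Of these 9 rose and 0 fell: Fn1, Tnc, Thbs2, Sparc, Postn, Tgfbi, Wisp1, Spon1 and Spon2. Tnc, for tenascin C, had 23.3, 23.7 and 17.3 CPM in WT and 172, 361 and 187 CPM in KO. Spon2, a secreted adhesion protein, had 3.65, 9.11 and 5.81 CPM in WT and 32.7, 165 and 483 CPM in KO, and Postn, for periostin, had 6.81, 5.95 and 3.63 CPM in WT and 16.3, 53.4 and 48 CPM in KO. None of the 3 overlapped between genotypes, and KO replicate 1 was the lowest KO library in each. By edgeR the log2 difference of Tnc was 3.48 (SE 0.40, adjusted p 0.0506) with all 6 libraries and 3.60 (SE 0.35, adjusted p 0.00902) without KO replicate 3. That of Spon2 was 5.19 (SE 1.00, adjusted p 0.109) with all 6 libraries and 3.97 (SE 0.68, adjusted p 0.0373) without KO replicate 3. Fn1, for fibronectin, had 55.2, 49.6 and 42.7 CPM in WT and 141, 209.8 and 482 CPM in KO and rose by 1.80 on the log2 scale in the fit of 5 libraries (2.50 with 6). The median of the list was 1.40 with 6 libraries and 0.93 without KO replicate 3.

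**Figure D3:**
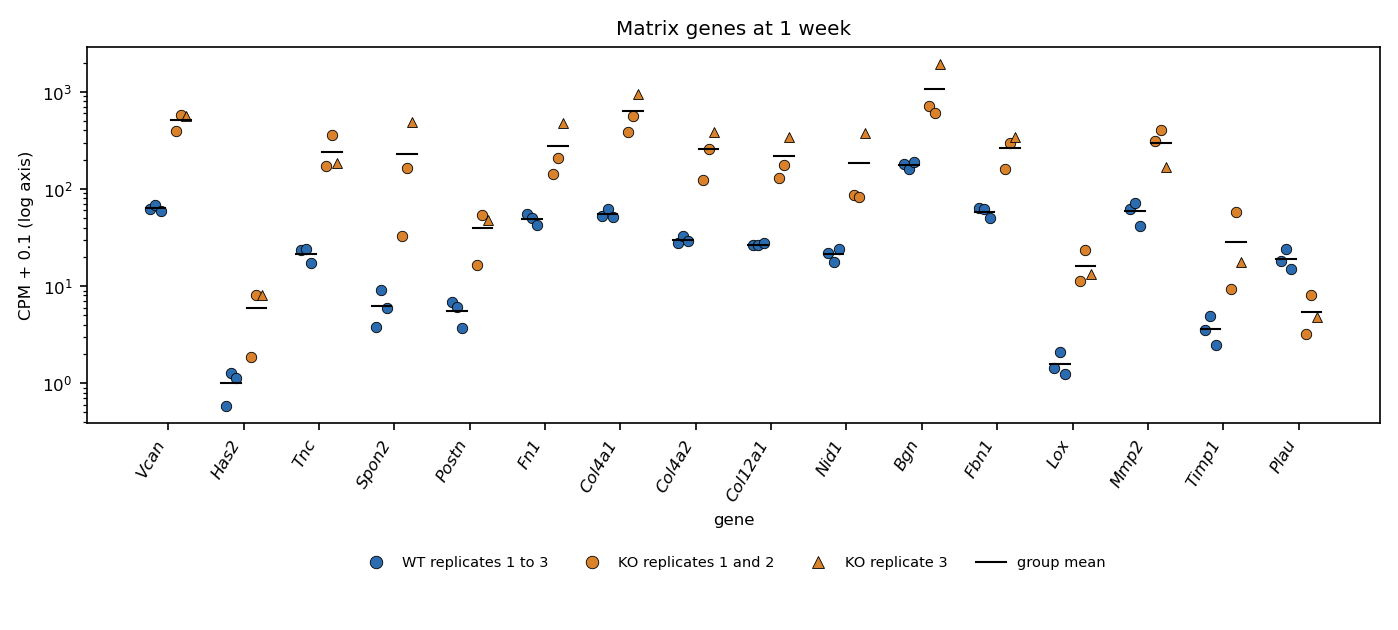
CPM + 0.1 on a log axis of 16 matrix genes in each 1-week library, WT replicates as blue circles, KO replicates 1 and 2 as orange circles, KO replicate 3 as a triangle, with the group mean as a bar. For Vcan, Tnc and Col4a1 all KO points lie above all WT points, and for Plau all KO points lie below.

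Of the basement membrane list 26 of 27 genes were tested, 18 with a positive and 8 with a negative log2 difference. Besides the type IV chains, Lama2, Lama4, Lamc1 and Nid1 rose and 0 genes fell. In KO 11 of the 26 genes were wholly higher and 3 wholly lower, beside 14.1% and 12.5% of all tested genes. Of the 26, 22 reached the filter's level in every WT library. With 6 libraries the median log2 difference was 0.71 over the 26 and 0.62 over the 22. Nid1, whose product links laminin to type IV collagen, had 21.8, 17.5 and 24.1 CPM in WT and 85.6, 82.9 and 379 CPM in KO and rose by 1.95 on the log2 scale (3.11 with 6 libraries). Col7a1, the anchoring fibril chain that keratinocytes and basal cells make, had 19, 17 and 30 counts in WT and 28, 30 and 172 counts in KO. Its group difference lay in KO replicate 3, since the log2 difference was 2.49 with that library and 0.47 without it (edgeR adjusted p 0.286 and 0.595).

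Among small leucine-rich proteoglycans 9 of 13 were tested and 1 rose. This was Bgn, for biglycan, on chromosome X, with 182, 161 and 189.7 CPM in WT and 715, 599 and 1928 CPM in KO, a log2 difference of 1.84 without KO replicate 3 and 2.61 with it. Dcn, for decorin, the best known proteoglycan of stromal fibroblasts, had 1881, 2041 and 1337 CPM in WT and 1863, 2608 and 1179.8 CPM in KO, which overlapped between genotypes. Its edgeR log2 difference was 0.10 (SE 0.38, adjusted p 0.909) with all 6 libraries and 0.31 (SE 0.27, adjusted p 0.576) without KO replicate 3. Of 15 tested elastic fibre genes 1 rose, Fbn1, for the fibrillin of microfibrils, with 63, 62.5 and 49.8 CPM in WT and 159, 296 and 344 CPM in KO. Eln, for elastin, had 13, 12.3 and 9.64 CPM in WT and 26.2, 62.9 and 40.3 CPM in KO and its edgeR adjusted p was 0.115 with 6 libraries and 0.0521 with 5. The elastic fibre list had 8 genes wholly higher in KO and 0 wholly lower.

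Enzymes that cut or join matrix proteins were counted as 2 lists. Of 77 listed metalloproteases and Timps 39 were tested with 6 libraries, and 6 rose: Mmp2, Mmp23, Adam23, Adamts4, Adamts9 and Adamts12. Of the 39, 34 reached the filter's level in every WT library. With 6 libraries the median log2 difference was 0.69 over the 39 and 0.46 over the 34. Adamts4 and Adamts12, the latter with 3, 6 and 5 counts in WT, entered through the KO libraries alone and so had to be higher. Mmp2, a gelatinase made mostly by stromal cells, had 62.1, 71.9 and 41.5 CPM in WT and 314, 399 and 167 CPM in KO. Adamts4, which cleaves versican and aggrecan, had 0, 0 and 0 counts in WT and 25, 176 and 66 counts in KO, at least 35.4-fold higher against a floor of 3 counts in each WT library. Timp1, an inhibitor of these proteases, had 28, 41 and 23 counts in WT and 69, 529 and 86 counts in KO. All 3 were wholly higher in KO, and Timp1 missed the threshold (edgeR adjusted p 0.139 with 6 libraries and 0.0616 with 5). Of 23 tested genes for plasminogen activators and crosslinking enzymes 3 rose, Lox, Plod1 and Pcolce. Lox, the oxidase that crosslinks collagen and elastin, had 11, 17 and 11 counts in WT and 82, 214 and 65 counts in KO, with an edgeR log2 difference of 3.42 (SE 0.49, adjusted p 0.0856) with all 6 libraries and 3.51 (SE 0.46, adjusted p 0.0193) without KO replicate 3. Plau, for the urokinase that urothelial cells secrete, went the other way, with 18, 23.9 and 15 CPM in WT and 3.11, 8.06 and 4.7 CPM in KO, wholly lower in KO but short of the threshold (edgeR adjusted p 0.139 and 0.086).

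Integrins, the receptors for these proteins, had mostly positive differences: of 23 tested, 20 had a positive log2 difference, 10 were wholly higher in KO and 1 wholly lower, and the median was 0.92 (0.59 without KO replicate 3). Of the 23, 20 reached the filter's level in every WT library, and with 6 libraries the median over these was 0.76. In the fit of 5 libraries 0 rose and 1 fell. The 1 that fell, Itgb6, the epithelial partner of the alpha v chain, had 24.9, 29.8 and 23.2 CPM in WT and 8.24, 9.06 and 3.07 CPM in KO, and its edgeR log2 difference was -1.92 (SE 0.45, adjusted p 0.137) with all 6 libraries and -1.63 (SE 0.26, adjusted p 0.0305) without KO replicate 3. KO replicate 3 was the lowest library and the groups did not overlap. Itgb8, another partner of alpha v, had 1, 1 and 1 counts in WT and 10, 19 and 13 counts in KO and did not pass without KO replicate 3 (edgeR adjusted p 0.0536). It entered the test through the KO libraries alone and so had to be higher.

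Markers of stromal and other cells moved beside the matrix genes. Of 12 fibroblast markers, all tested, 12 had a positive log2 difference and 3 rose, Col1a1, Pdgfra and Dpt. Their summed level was 4948, 5917 and 3687 in WT and 8399, 10467 and 5197 CPM in KO, and some of them, such as Col1a1, Col3a1, Lum and Dcn, are matrix genes themselves. Smooth muscle markers summed to 442, 673 and 548 in WT and 979, 1721 and 1449 CPM in KO, and Tagln and Myl9 of 11 rose. Endothelial markers summed to 361, 321 and 277 in WT and 532, 633 and 659 CPM in KO, and Egfl7 of 11 rose. Leukocyte markers summed to 356, 219.8 and 252 in WT and 392, 463 and 698 CPM in KO, with 0 of 14 past the threshold. The sums of fibroblast markers overlapped between genotypes, and those of the other 3 lists did not. No defining marker of these cells was at 0: Acta2 had 49.1, 92.1 and 24.5 CPM in WT and 132, 678 and 41.1 CPM in KO, Cdh5 had 20.9, 16.2 and 25.5 CPM in WT and 28.8, 31.3 and 41.9 CPM in KO, and Cd74 had 118, 68.3 and 118 CPM in WT and 103, 64.4 and 147 CPM in KO. Whether more stromal cells were peeled off with the KO epithelium or each cell held more RNA cannot be told apart in bulk RNA, and the part of these markers in the matrix result was not tested.

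Squamous genes showed a few large differences in single genes and none across the lists. Sprr2f, a small proline-rich protein of the cornified envelope, had 0.851, 0.584 and 1.45 CPM in WT and 27.7, 142 and 115 CPM in KO. All 3 KO libraries were above all WT libraries, with KO replicate 2 the highest and KO replicate 1 the lowest of them. The edgeR log2 difference was 6.59 (SE 0.77, adjusted p 0.0506) with all 6 libraries and 6.40 (SE 0.77, adjusted p 0.0153) without KO replicate 3. It was the only 1 of 12 cornified envelope genes tested with 6 libraries that rose. Of the 12, 11 reached the filter's level in every WT library. Sprr2f did not and was tested because of its KO libraries, so it had to be higher. Its value is uncertain because the Sprr2 genes are near-identical copies that can share reads. Ivl, for involucrin, the envelope scaffold, had 253, 239 and 218 CPM in WT and 285, 555 and 400.5 CPM in KO, and Sbsn, for suprabasin, had 19.4, 22.8 and 22.4 CPM in WT and 26.3, 45.3 and 54.8 CPM in KO. Both were wholly higher in KO, with KO replicate 1 next to the WT libraries, and missed the threshold (edgeR adjusted p 0.197 and 0.226 without KO replicate 3).

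Of 51 listed keratins 15 were tested, and 0 rose or fell in either fit. The median log2 difference was -0.07 with 6 libraries and 0.06 with 5. Krt6a, a keratin of wounded and hyperproliferative epithelium, had 0, 0 and 0 counts in WT and 20, 398 and 103 counts in KO, which is at least 66-fold higher against the floor. It entered the test through the KO libraries alone and so had to be higher. Its edgeR adjusted p was 0.115 with 6 libraries and 0.0654 with 5, since the KO libraries differed widely, and Krt6b is a near copy that may share its reads. Krt14, a keratin of basal cells chosen after its values were seen, had 4, 5 and 27 counts in WT and 17, 402 and 912 counts in KO, and KO replicate 1 overlapped WT replicate 3 in counts. Krt5, the partner of Krt14 in basal cells, had 595, 612 and 626 CPM in WT and 341, 717 and 471 CPM in KO, with no separation of the genotypes. Krt1, a suprabasal keratin of skin, had 18, 34 and 57 counts in WT and 6, 2 and 3 counts in KO, wholly lower in KO (edgeR adjusted p 0.137 and 0.0766). Krt23 and Krt78 were wholly higher in KO, with log2 differences of 2.77 and 1.56 in the fit of 5 libraries (3.21 and 2.81 with 6), and did not pass.

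No serpin B gene of 6 tested, S100A gene of 12, desmosome gene of 9 or tight junction gene of 18 rose or fell. S100a6, a calcium-binding protein, had 9898, 9564 and 9969 CPM in WT and 9716, 11133 and 15038 CPM in KO, and the genotypes overlapped. Dsp, for desmoplakin, had 436, 362 and 537 CPM in WT and 424, 594 and 1433 CPM in KO, where KO replicate 3 was highest. All 25 uroplakins and urothelial regulators on the list were tested, 0 rose or fell, 6 were wholly lower in KO and 0 wholly higher, and the median was -0.28 (-0.36 without KO replicate 3). The 6 hold Elf5 and Ovol2, a pair of epithelial transcription factors, with 53, 51 and 46 counts in WT and 20, 9 and 10 counts in KO and 41, 54 and 51 counts in WT and 16, 22 and 8 counts in KO respectively. Upk1b, a uroplakin, was wholly lower too, at 795, 1061 and 758 CPM in WT and 439, 671 and 141 CPM in KO, with KO replicate 3 the lowest. Its edgeR adjusted p was 0.388 with 6 libraries and 0.221 with 5.

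Among metabolic genes, several enzymes that conjugate or oxidise foreign compounds were lower in KO. Of 108 listed conjugation and aldehyde enzymes 61 were tested with 6 libraries and 64 with 5. In the fit of 5 libraries 7 fell (Aldh3a1, Aldh6a1, Ephx2, Gsta3, Mgst2, Ugt2b34 and Ugt2b35) and 0 rose. KO lay wholly below WT for 23 and wholly above for 6 of the 61. Their median was -0.58 with 6 libraries and -0.41 with 5. Ugt2b34, a glucuronosyltransferase, had 154, 169.6 and 161 CPM in WT and 4.73, 14.4 and 1.02 CPM in KO. Its neighbour Ugt2b35 had 29, 30 and 40 counts in WT and 0, 0 and 0 counts in KO, at least 8.28-fold lower in KO against the floor. Reads of this family can be shared between copies, so single values are uncertain. Neither gene overlapped between genotypes, and the edgeR log2 difference of Ugt2b34 was -4.56 (SE 0.82, adjusted p 0.0941) with all 6 libraries and -4.10 (SE 0.47, adjusted p 0.0152) without KO replicate 3. Aldh6a1, a mitochondrial dehydrogenase of valine breakdown, had 55.2, 71.2 and 48 CPM in WT and 14.9, 11.7 and 18.2 CPM in KO and differed by -1.96 (SE 0.32, adjusted p 0.0927) with all 6 libraries and -2.18 (SE 0.26, adjusted p 0.0153) without KO replicate 3, again by edgeR. Gstm1, a glutathione transferase and among the 10 transcripts with the most counts here, had 19765, 20772 and 16819.6 CPM in WT and 11005, 8471 and 4028 CPM in KO. It was wholly lower in KO and missed the threshold (edgeR adjusted p 0.222 and 0.0616).

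Of 20 cytochrome P450 genes tested with 6 libraries 1 fell, Cyp4f15, with 171, 204 and 139 CPM in WT and 83.1, 70.8 and 1.23 CPM in KO (edgeR adjusted p 0.0462 without KO replicate 3). Cyp2f2, a monooxygenase that bioactivates aromatic compounds, had 2278, 1983 and 2330 counts in WT and 165, 11 and 0 counts in KO. The KO libraries were all below WT yet spread from 165 to 0 counts, and the gene missed the threshold (edgeR adjusted p 0.177 and 0.0556). Gclc, the limiting subunit for glutathione synthesis, had 199.6, 199.5 and 291 CPM in WT and 134, 66.5 and 30.9 CPM in KO, wholly lower in KO. Among 31 glutathione and redox genes 0 passed, with 5 wholly lower and 1 wholly higher, beside 12.5% and 14.1% of all tested genes.

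Retinoid genes diverged from each other. Rbp4, the plasma carrier of retinol, rose, with 5.96, 8.64 and 9.54 CPM in WT and 67.5, 105 and 36 CPM in KO and an edgeR log2 difference of 3.11 (SE 0.46, adjusted p 0.0927) with all 6 libraries and 3.38 (SE 0.30, adjusted p 0.00699) without KO replicate 3. Aldh1a2, a stromal enzyme of retinoic acid synthesis, showed 24, 51 and 28 counts in WT and 88, 395 and 217 counts in KO, wholly higher, and Aldh1a1, its epithelial relative, had 67, 81.3 and 68.3 CPM in WT and 38.2, 43.5 and 16.8 CPM in KO, wholly lower. Neither passed, with edgeR adjusted p of 0.0561 and 0.0748 in the fit of 5 libraries. Ttr, for transthyretin, had 304, 223 and 256 counts in WT and 75, 30 and 5 counts in KO and was wholly lower (edgeR adjusted p 0.0543 without KO replicate 3).

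In lipid metabolism the transcripts that fell included those of 2 regulators. Srebf1, the transcription factor of fatty acid synthesis, had 31.4, 58.8 and 26.8 CPM in WT and 9.05, 8.39 and 14.7 CPM in KO, wholly lower in KO, with an edgeR log2 difference of -1.87 (SE 0.43, adjusted p 0.13) with all 6 libraries and -2.21 (SE 0.39, adjusted p 0.0402) without KO replicate 3. It was the single gene of 22 tested in its list that fell. Srebf2, the factor of sterol synthesis, was likewise the single one to fall among 25 cholesterol genes tested with 5 libraries. Hmgcs1, the first committed enzyme of sterol synthesis, had 362, 334 and 339.5 CPM in WT and 271, 617 and 163 CPM in KO, overlapping, and its log2 difference was 0.02 with 6 libraries and 0.33 with 5. Ppara, a nuclear receptor that drives fatty acid oxidation genes, had 173, 209.7 and 208 CPM in WT and 113, 63.8 and 51.7 CPM in KO, wholly lower in KO and short of the threshold (edgeR adjusted p 0.064 without KO replicate 3).

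Glycolysis and respiration showed little. Of 21 glycolysis genes 1 rose, Pfkp, the platelet form of phosphofructokinase, with 10.5, 12.7 and 11.1 CPM in WT and 36.9, 36.7 and 121 CPM in KO. Of 19 citrate cycle genes and 75 nuclear-encoded respiratory chain genes 0 rose or fell. The per-library medians of the respiratory chain, relative to the WT mean, were -0.10, 0.32 and -1.17 in KO replicates 1 to 3, so the negative list median with 6 libraries (-0.16) came with KO replicate 3 and was 0.08 without it. Ribosomal protein genes, which have short transcripts, had medians of -0.60, -0.42 and -1.97 in the same libraries. Of 77 tested, 45 were wholly lower in KO, 0 wholly higher, and 1, Rpl4, fell. The list median was -0.84 with 6 libraries and -0.58 with 5. Ribosomal protein genes have many processed copies that can take reads, and the part of the length trend of KO replicate 3 in its value was not tested.

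**Figure D4:**
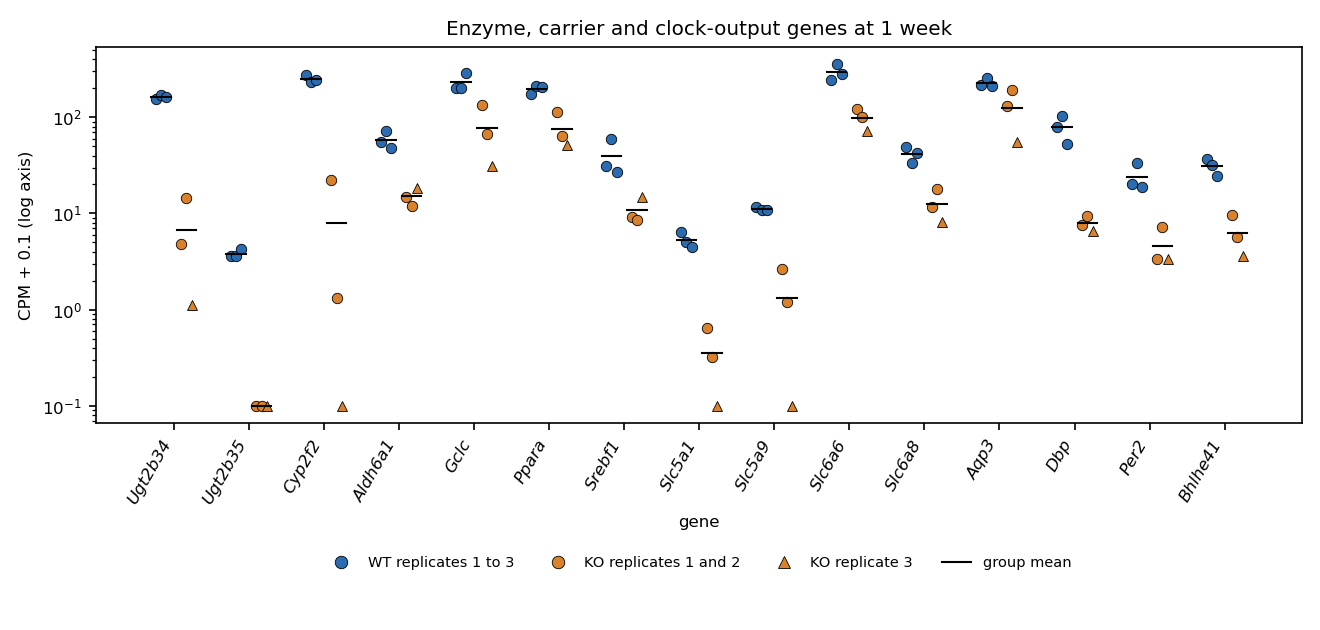
CPM + 0.1 on a log axis of 15 enzyme, carrier and clock-output genes in each 1-week library, WT replicates as blue circles, KO replicates 1 and 2 as orange circles, KO replicate 3 as a triangle, with the group mean as a bar. Each gene shown has all KO points below all WT points, and points at 0.1 mark libraries with 0 counts.

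Transport genes were mostly level, with a few carriers lower. Of 369 listed solute carriers 211 were tested with 6 libraries, and 7 of the 215 tested with 5 fell while 0 rose, among them Slc5a1, Slc5a9, Slc6a6, Slc6a8, Slc22a17 and Slc47a1. The median of the list was -0.05, with 25 of the 211 genes wholly higher and 37 wholly lower in KO. Over all tested genes these shares were 14.1% and 12.5%, and in the fit of 5 libraries 0.766% fell and 1.68% rose. In the list more genes were lower than higher by both counts, the reverse of all tested genes. Slc5a1, the sodium-coupled glucose carrier, had 52, 42 and 42 counts in WT and 4, 2 and 0 counts in KO. Slc5a9, a related sodium-coupled sugar carrier, had 96, 92 and 104 counts in WT and 19, 10 and 0 counts in KO. In both, KO replicate 3 was at 0 and the groups did not overlap. The edgeR log2 difference was -4.17 (SE 0.75, adjusted p 0.0941) with all 6 libraries and -3.81 (SE 0.57, adjusted p 0.0273) without KO replicate 3 for Slc5a1 and -3.10 (SE 0.85, adjusted p 0.171) with all 6 libraries and -2.66 (SE 0.42, adjusted p 0.0315) without KO replicate 3 for Slc5a9. Slc6a6, the taurine carrier, had 241, 357 and 283 CPM in WT and 122, 101 and 71.3 CPM in KO, and Slc6a8, the creatine carrier on chromosome X, had 48.6, 33.2 and 42.2 CPM in WT and 11.6, 17.9 and 7.97 CPM in KO. Both were wholly lower and fell, with log2 differences of -1.45 and -1.52 in the fit of 5 libraries (-1.58 and -1.72 with 6). Among facilitative glucose carriers, Slc2a3 had 3, 4 and 6 counts in WT and 13, 29 and 14 counts in KO and Slc2a12 had 52, 43 and 38 counts in WT and 10, 21 and 1 counts in KO, wholly higher and wholly lower respectively, and neither passed. Slc2a3 entered the test through the KO libraries alone and so had to be higher.

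Of 13 aquaporins and urea transporters 5 were tested. Aqp1, the water channel of endothelium and stroma, had 144, 175 and 144 CPM in WT and 574, 581 and 189.9 CPM in KO and rose by 1.86 on the log2 scale without KO replicate 3, which lay between the genotypes (edgeR adjusted p 0.185 with it and 0.0122 without). Aqp3, the water and glycerol channel of basal urothelium, had 218, 256 and 213 CPM in WT and 131, 191 and 55.8 CPM in KO, wholly lower in KO, with an edgeR adjusted p of 0.394 with 6 libraries and 0.255 with 5. Potassium channels (32 tested), ion pumps (34) and zinc and metal carriers (26) had 0 genes past the threshold. Among other ion channels Cacna2d1 rose and Cacna1h, a voltage-gated calcium channel, fell, with 31, 25 and 34 counts in WT and 3, 4 and 1 counts in KO. Of 32 ABC transporters Abca9 rose, with 84, 67 and 73 counts in WT and 245, 190 and 191 counts in KO. The genotypes did not overlap in either of these last genes.

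Many clock genes were lower in all 3 KO libraries. All 19 were tested, 11 were wholly lower in KO and 1 wholly higher, and the per-library medians relative to the WT mean were -0.09, 0.15 and -0.15 in WT replicates 1 to 3 and -0.70, -1.14 and -1.25 in KO replicates 1 to 3. The list median was -0.93 with 6 libraries and -0.75 with 5. Dbp, a transcription factor that the clock drives, had 79.2, 104 and 52.6 CPM in WT and 7.56, 9.28 and 6.54 CPM in KO, and was 10.1-fold lower on average. Bhlhe41, a repressor that closes a feedback loop of the clock, had 36.9, 32 and 24.3 CPM in WT and 9.46, 5.52 and 3.48 CPM in KO. Per2, a core repressor, had 19.9, 33.4 and 18.8 CPM in WT and 3.24, 7.07 and 3.27 CPM in KO. All 3 were wholly lower in KO, and the first 2 fell. By edgeR the log2 difference of Dbp was -3.32 (SE 0.37, adjusted p 0.042) with all 6 libraries and -3.26 (SE 0.35, adjusted p 0.0131) without KO replicate 3, and that of Per2 was -2.39 (SE 0.47, adjusted p 0.109) with all 6 libraries and -2.24 (SE 0.45, adjusted p 0.0521) without KO replicate 3. Nr1d1, the Rev-erb alpha repressor, had 92.9, 70.0 and 116 CPM in WT and 43.6, 15.2 and 38 CPM in KO, and Per3 had 32.1, 42.4 and 39.2 CPM in WT and 18.1, 7.95 and 21.7 CPM in KO. Nfil3, a repressor that binds the same elements as Dbp and runs opposite to it, had 3.65, 3.74 and 4.35 CPM in WT and 9.46, 12.9 and 16.4 CPM in KO, the 1 gene wholly higher. Arntl, for the activator Bmal1, had 22, 12 and 14 counts in WT and 46, 20 and 8 counts in KO, which overlapped. The time of day at which the animals were taken is not given in the labels.

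Clock-driven promoters often hold the E-box CACGTG, which is its own reverse complement. In the RefSeq promoters of GRCm38.p6, taken from 250 bases before to 50 after the start, 5 of 16 clock genes with a promoter in the table held it (31.2%), against 10.4% of 10067 tested genes. The D-box of Dbp itself, searched as TTATGNAA on both strands, was in 2 of these 16 (12.5%) against 1.86% of tested genes. The promoters of Gm129 (RefSeq symbol Ciart, chr3:95882179-95882478, minus strand) and Bhlhe41 (chr6:145865371-145865670, minus strand) are shown because both genes were wholly lower and hold the E-box, in capitals, 5′ to 3′ along the gene.
Gm129: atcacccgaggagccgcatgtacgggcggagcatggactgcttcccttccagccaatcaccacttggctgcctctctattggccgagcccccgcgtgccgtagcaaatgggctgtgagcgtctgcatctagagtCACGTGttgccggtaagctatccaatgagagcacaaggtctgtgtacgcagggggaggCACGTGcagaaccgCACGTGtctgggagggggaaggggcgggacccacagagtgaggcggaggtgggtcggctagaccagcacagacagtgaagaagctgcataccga
Bhlhe41: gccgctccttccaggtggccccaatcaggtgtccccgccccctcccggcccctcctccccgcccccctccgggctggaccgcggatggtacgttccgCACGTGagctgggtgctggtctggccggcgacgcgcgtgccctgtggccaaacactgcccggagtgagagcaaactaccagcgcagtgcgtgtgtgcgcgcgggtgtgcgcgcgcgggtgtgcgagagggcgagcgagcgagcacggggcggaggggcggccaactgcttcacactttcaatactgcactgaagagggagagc
Gm129, a repressor of the clock, holds the element 3 times and had 14, 36 and 12 counts in WT and 0, 2 and 0 counts in KO. Its KO libraries held at most 2 counts and its edgeR adjusted p was 0.137 with 6 libraries and 0.0899 with 5. A match describes these letters and is not evidence of binding.

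Lists of signals that reach the epithelium had more higher than lower genes, and 1 of these genes passed the test. Of 10 tested EGF family genes 8 had a positive log2 difference, 3 were wholly higher in KO and 0 wholly lower, and none passed. Their median was 0.86 (0.35 without KO replicate 3). Of the 10, 8 reached the filter's level in every WT library, and with 6 libraries the median over the 8 was 0.50. Ereg, for epiregulin, a ligand of the EGF receptor, had 11, 7 and 3 counts in WT and 25, 293 and 188 counts in KO, and Hbegf, another ligand, had 7.78, 7.82 and 11.7 CPM in WT and 20.8, 28.2 and 66.6 CPM in KO. Both were wholly higher in KO with edgeR adjusted p of 0.0602 and 0.0618 in the fit of 5 libraries. Ereg did not reach the filter's level in every WT library and was tested because of its KO libraries. Immediate early genes, which respond within minutes to stress and handling, had 0 of 17 past the threshold in the 6-library fit and 0 in the other, with 13 positive differences, 5 genes wholly higher, 1 wholly lower and a median of 0.64 (0.41 without KO replicate 3). Over the 15 of the 17 that reached the filter's level in every WT library, the median was 0.61 with 6 libraries. Egr1, one of them, had 22.1, 18.7 and 13.2 CPM in WT and 45.4, 147 and 894 CPM in KO, highest in KO replicate 3. Of chemokines and interleukins 1 rose, Il18, among 24 tested with 5 libraries. With 6 libraries 17 of 23 had a positive difference, 10 were wholly higher and 2 wholly lower, and the median was 1.25 (0.83 without KO replicate 3). Of the 23, 18 reached the filter's level in every WT library, and with 6 libraries the median over the 18 was 1.29. Il33, an alarmin of barrier tissues, had 125, 185 and 200 counts in WT and 196, 2392 and 436 counts in KO and Ccl8, a monocyte chemokine, had 36, 12 and 30 counts in WT and 62, 429 and 279 counts in KO, while Ccl5 had 161, 64 and 54 counts in WT and 24, 18 and 1 counts in KO. Il33 and Ccl8 were wholly higher and Ccl5 wholly lower in KO, and none of the 3 passed.

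Cell cycle genes give the context of these lists and are summarised briefly. Of 22 G2 and M phase genes tested with 5 libraries 15 rose and 0 fell, and of 24 S phase genes 2 rose. With 6 libraries, 9 of the 21 tested G2 and M phase genes and 18 of the 24 S phase genes reached the filter's level in every WT library, so a gene that entered through the KO libraries alone had to differ. Relative to the WT mean the medians were 2.07, 4.83 and 3.49 for G2 and M phase genes and 0.39, 1.60 and 1.67 for S phase genes in KO replicates 1 to 3. The G2 and M phase median was thus highest in KO replicate 2, as were Sprr2f and Krt6a, and the S phase median was highest in KO replicate 3. Mki67, which marks cycling cells, had 2.67, 2.92 and 1.87 CPM in WT and 27.3, 192 and 158 CPM in KO, and Cdk1, the mitotic kinase, had 1, 2 and 2 counts in WT and 19, 277 and 66 counts in KO. KO replicate 2 was highest and KO replicate 1 lowest in both, and WT libraries held at most 2 counts of Cdk1. The element through which DREAM, a repressor complex of resting cells, binds many of these genes is the CHR, searched as TTTGAA on both strands. It was in the promoters of 14 of 19 G2 and M phase genes (73.7%), against 11.6% of tested genes, 21.9% of the genes that rose, 13% of those that fell and 12.5% of collagen chains. The genes that rose include 15 G2 and M phase genes, so their share partly counts the same promoters. The promoters of Cdk1 (chr10:69352863-69353162, minus strand) and Mki67 (chr7:135716330-135716629, minus strand) are shown with it in capitals.
Cdk1: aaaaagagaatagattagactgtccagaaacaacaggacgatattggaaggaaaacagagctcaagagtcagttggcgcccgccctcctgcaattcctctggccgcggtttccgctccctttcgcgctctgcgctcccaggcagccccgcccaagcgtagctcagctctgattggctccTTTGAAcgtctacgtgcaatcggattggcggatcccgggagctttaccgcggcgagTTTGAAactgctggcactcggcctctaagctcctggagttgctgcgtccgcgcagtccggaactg
Mki67: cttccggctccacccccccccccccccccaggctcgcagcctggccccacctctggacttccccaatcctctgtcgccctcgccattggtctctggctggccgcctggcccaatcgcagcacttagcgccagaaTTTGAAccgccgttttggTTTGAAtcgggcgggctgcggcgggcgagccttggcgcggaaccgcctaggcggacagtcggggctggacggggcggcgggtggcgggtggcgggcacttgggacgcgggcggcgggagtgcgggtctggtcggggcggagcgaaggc
Each holds the element 2 times.

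A short stretch of chromosome 1, chosen after its values were seen, held neighbouring genes that moved in opposite directions. Of 10 tested genes between 171113912 and 171281193 on GRCm38, 4 passed in the fit of 5 libraries and 5 did not overlap between genotypes. Over all tested genes these shares were 2.45% and 26.5%. The ends of the stretch were set at 1700009P17Rik and Ppox, which both passed, so the choice of ends raises these counts. 1700009P17Rik (RefSeq symbol Cfap126, chr1:171113912-171126956), a gene of motile cilia, had 130, 139 and 117 counts in WT and 7, 3 and 21 counts in KO. B4galt3 (chr1:171270328-171276895), a galactosyltransferase, had 318, 325 and 390 counts in WT and 95, 61 and 129 counts in KO, and Ppox (chr1:171276991-171281193), an enzyme of haem synthesis, had 108, 133 and 153 counts in WT and 9, 21 and 23 counts in KO. All 3 were wholly lower in KO. Adamts4 (chr1:171250129-171262267), given above, lies among them and was wholly higher, while Tomm40l, in the same stretch, had 130, 131 and 99 counts in WT and 93, 163 and 46 counts in KO, which overlapped. In the fit of 5 libraries the edgeR log2 difference was -4.59 (SE 0.49, adjusted p 0.0122) for 1700009P17Rik, -2.06 (SE 0.30, adjusted p 0.0263) for B4galt3 and -3.08 (SE 0.40, adjusted p 0.0188) for Ppox, and the adjusted p of Adamts4 was 0.046. With all 6 libraries edgeR's adjusted p were 0.16, 0.256, 0.119 and 0.0937.

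The 1-month libraries show the same genes in other animals. They are in other batches, replicates 1 and 2 of each genotype in batch 2 and replicate 3 of each in batch 3. The title and the library name of WT replicate 3 carry different animal numbers, and its column was matched by the library name. There 1700009P17Rik had 179, 83 and 44 counts in WT and 129, 12 and 13 counts in KO, Ppox had 59, 40 and 61 counts in WT and 73, 13 and 15 counts in KO, and B4galt3 had 79, 103 and 206 counts in WT and 217, 57 and 39 counts in KO. Adamts4 had 5, 9 and 2 counts in WT and 18, 65 and 48 counts in KO. KO replicates 2 and 3 of 1 month lay below all WT libraries of that time in the first 3 genes and KO replicate 1 did not, so the genotypes overlapped. Adamts4 was wholly higher in KO at that time. Xist at that time had 4, 7 and 11 counts in WT and 28, 2 and 7764 counts in KO, and Ddx3y had 475, 547 and 596 counts in WT and 928, 694 and 0 counts in KO. KO replicates 1 and 2 were thus alike in these sex-linked transcripts and differed in the first 3 genes. KO replicates 2 and 3 were alike in the first 3 genes and differed in the sex-linked transcripts. The part of sex in these values was not tested. The 1-month values carry no test here.

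**Figure D5:**
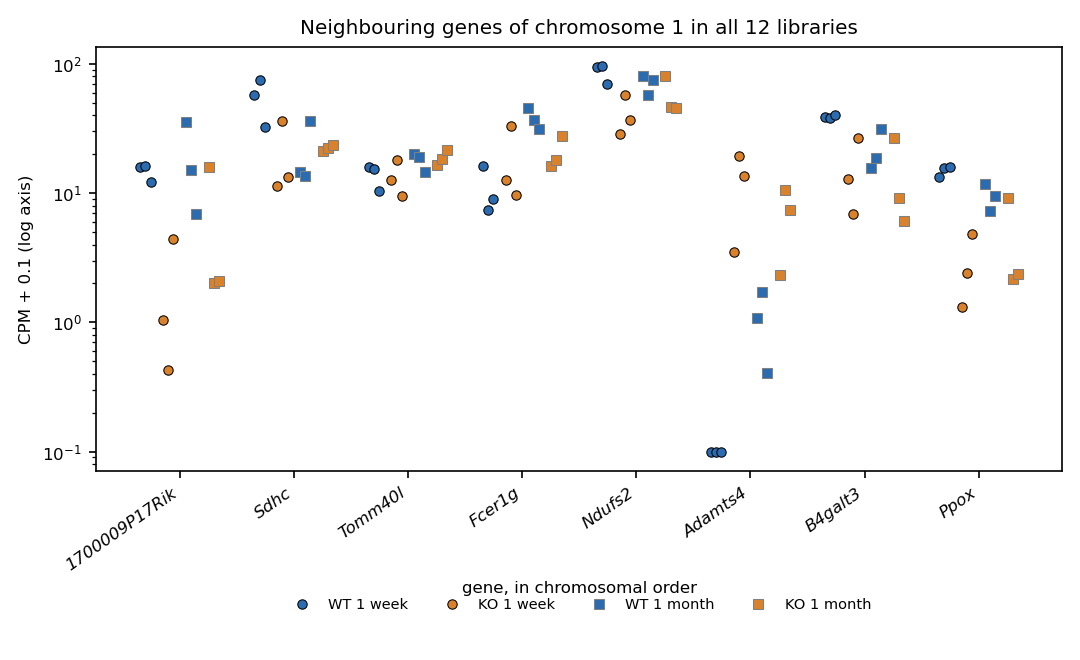
CPM + 0.1 on a log axis of 8 neighbouring genes of chromosome 1, in chromosomal order, in all 12 libraries, WT in blue and KO in orange, circles for 1 week and squares for 1 month. At 1 week 1700009P17Rik, B4galt3 and Ppox lie lower and Adamts4 higher in every KO library, and at 1 month a single KO library lies among the WT libraries for the first 3.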

How the data were processed

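Libraries of peeled mouse urothelium were read from the 3′ end (QuantSeq, forward), and the HTSeq setting named in the labels' protocols is the stranded one. The deposited values are raw counts per gene symbol, made by the authors. The submitters' processing notes list Bowtie, TopHat, HTSeq, DESeq2 and mm10, without versions or roles. The annotation behind the counts is not given in the sources used here. All 6 columns of the 1-week table were used and 0 columns were left unassigned. No pair of replicates agreed within sampling noise, by a chi-square over their counts.

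Counts were tested with edgeR 4.0.16 (quasi-likelihood, robust, TMM, default low-count filter, R 4.3.3), two-sided, adjusted over all tested genes after Benjamini and Hochberg, and called at 0.05. DESeq2 1.42.0 and limma 3.58.1 were alternatives. The steps were tested on simulated data. Log2 CPM per library used a prior count of 2. Gene lists are described by counts and medians, without a test. The lists, and the genes they hold, were chosen with earlier results of these data known. Named genes are all called genes, then 12 per direction with the smallest p that DESeq2 also called and that kept their sign whichever library was left out, then up to 4 per list by size of difference among genes without overlap, and others stated as chosen after their values were seen. The latter also include the defining markers of tissues and Mmp2, Mmp23, Gstm1, Nr1d1, Per3, Nfil3, Arntl and Krt14. Genes named without a value as list members that passed were likewise named from the result. Some genes that the rule names are not reported here.

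Positions and promoters come from RefSeq (GRCm38.p6, the assembly called mm10), where 20756 of 23337 symbols matched directly and 2259 through a synonym.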

Additional observations from a re-analysis of the deposited data

How the results depend on the processing

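The counts of called genes, the log2 differences of named genes and 42 list medians were recomputed with size factors as in DESeq2, library size alone, non-robust dispersions, no filter on low counts, a filter at a mean of 20 counts, DESeq2, limma-voom with sample quality weights, without the 10 most abundant genes, and without each library in turn; counts of genes that do not overlap, marker sums and promoter motifs were not. Limma-voom and DESeq2 without KO replicate 3 were added after seeing the data. The 8 genes called became 62 without the filter (47 higher, 15 lower), 957 under DESeq2 (687 and 270) and 680 under limma-voom (494 and 186), and with non-robust dispersions 5 were higher. Without KO replicate 3, DESeq2 called 1172 (704 and 468) and limma-voom 352 (264 and 88). Leaving out 1 library gave 0 to 320 genes, 0 to 220 higher and 0 to 100 lower. Dbp missed the threshold with library size alone (edgeR adjusted p 0.0556). Of the 42 medians, 21 had one sign throughout and 23 moved by less than the spread of the KO libraries in all alternatives. Without the filter the median was 1.08 for collagen chains, 0.32 for desmosome genes, 0.0100 for cytochrome P450 genes, 0.47 for glucose and monocarboxylate carriers, 0.72 for potassium channels, -0.54 for aquaporins and urea transporters, 1.52 for immediate early genes and 0.50 for chemokines and interleukins. With a mean of at least 20 counts it was 1.27 for metalloproteases and Timps and 0.24 for aquaporins. Limma-voom gave 0.96 for matricellular genes, 0.47 for integrins and 0.68 for chemokines. Without KO replicate 3, DESeq2 gave 0.95 for matricellular genes, 0.60 for integrins and -0.17 for tight junction genes, and limma-voom gave 0.82, 0.43 and -0.20 for these, 0.16 for EGF family genes and 0.66 for chemokines. Leaving out 1 library gave medians of 1.04 to 1.49 for collagen chains, 0.93 to 1.53 for matricellular genes, 0.51 to 0.96 for basement membrane genes, 0.55 to 1.13 for metalloproteases and Timps, 0.59 to 1.02 for integrins and 0.13 to 1.02 for cornified envelope genes. The same ranges were -0.10 to 0.35 for desmosome genes, -0.27 to 0.15 for tight junction genes, -0.13 to 0.30 for serine and one-carbon genes, -0.0562 to 0.45 for glucose carriers, 0.15 to 0.57 for potassium channels and 0.0561 to 1.29 for aquaporins. They were -0.20 to 0.21 for ion pumps, -0.24 to 0.47 for prostaglandin genes and -1.30 to -0.75 for clock genes. Genes near 0 changed sign. Hmgcs1 was -0.0106 without the filter and -0.0600 under limma-voom, and leaving out single libraries gave -0.70, -0.03, -0.01 and up to 0.33. For the marker genes Csf3r, Hbb-b2 and Tnnt3 the ranges were -0.15 to 0.46 (with -0.01), -0.42 to 0.33 (with 0.18) and -0.84 to 0.11. Wfdc2 ran from -0.46 to 0.13, and was 0.14 under DESeq2 and 0.0835 under limma-voom without KO replicate 3. The cause was not tested, apart from the fewer or additional genes and libraries each alternative holds. No paired analysis was possible because the labels give no replicate numbers, and those used here follow accession order. Counts set a floor: 3 counts correspond to between 0.316 and 0.534 CPM, which covers counting error alone. The smallest difference called without KO replicate 3 was 0.97 on the log2 scale.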

Other observations

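Several genes outside the lists had some of the smallest p-values among the higher genes. Bmp5, a stromal bone morphogenetic protein, showed 55, 77 and 68 counts in WT and 280, 349 and 244 counts in KO. Igsf10, an immunoglobulin superfamily gene, had 192, 174 and 191 counts in WT and 783, 742 and 472 counts in KO, and Ncam1, a neural cell adhesion molecule, had 135, 119 and 151 counts in WT and 490, 471 and 355 counts in KO. All 3 were wholly higher in KO, with narrow spreads within each genotype. The edgeR log2 difference of Igsf10 was 2.16 (SE 0.27, adjusted p 0.058) with all 6 libraries and 2.10 (SE 0.20, adjusted p 0.00893) without KO replicate 3. Growth signals chosen after their values were seen included Igf1, for insulin-like growth factor 1, with 56, 70 and 42 counts in WT and 259, 1041 and 1130 counts in KO. Fgf7, a stromal growth factor for epithelium, had 8, 11 and 10 counts in WT and 41, 67 and 25 counts in KO, and Gli1, a target of hedgehog signalling, had 77, 75 and 58 counts in WT and 414, 324 and 65 counts in KO. These 3 rose in the fit of 5 libraries, and Gli1 in KO replicate 3 was close to the WT libraries. H19, an imprinted non-coding RNA, had 5, 1 and 2 counts in WT and 35, 119 and 22 counts in KO, wholly higher in KO. H19 was below the filter's level in every WT library and entered through the KO libraries alone, so it had to be higher. Fgf9, another growth factor, had 25, 24 and 32 counts in WT and 0, 0 and 3 counts in KO, with KO replicates 1 and 2 at 0.

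Among the lower genes, Prom2, for a membrane protein of epithelial protrusions, had 162, 184 and 109 CPM in WT and 33.9, 42.5 and 28 CPM in KO. Gadd45a, a stress-induced growth arrest gene, had 27.6, 32.3 and 23.2 CPM in WT and 7.29, 7.07 and 4.09 CPM in KO, and Lypd6b had 36, 37.5 and 32.2 CPM in WT and 12.2, 10.8 and 8.79 CPM in KO. All 3 fell in the fit of 5 libraries and were wholly lower, and KO replicate 3 was the lowest in each. Bex4, on chromosome X, had 44, 40 and 56 counts in WT and 2, 0 and 0 counts in KO. Gipc2, a scaffold protein, had 165, 150 and 215 counts in WT and 16, 5 and 5 counts in KO, an edgeR log2 difference of -3.99 (SE 0.55, adjusted p 0.0842) with all 6 libraries and -3.96 (SE 0.51, adjusted p 0.0188) without KO replicate 3. Uchl1, a ubiquitin hydrolase listed with neural markers, had 954, 741 and 1526 CPM in WT and 252, 44.9 and 56.2 CPM in KO, wholly lower in KO but with an edgeR adjusted p of 0.0751 without KO replicate 3. S100b, a glial marker of the same list, rose, with 25, 25 and 21 counts in WT and 84, 179 and 206 counts in KO.

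Markers of other tissues were summed per library. Those of male accessory glands reached at most 0.95 CPM in any library, and 0 of the 13 passed the filter on low counts. Neutrophil markers summed to 25.2, 37.2 and 37.2 in WT and 23.2, 26.6 and 20.9 CPM in KO, red cell markers to 755, 482 and 180.3 in WT and 214, 437 and 61.3 CPM in KO, and fat markers to 717, 724 and 334 in WT and 335, 399.5 and 362 CPM in KO. Vaginal and uterine epithelial markers summed to 1783, 2019 and 1679 in WT and 1605, 2523 and 1114 CPM in KO. The sums of neutrophil, red cell, fat and vaginal markers overlapped between genotypes.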
